A study of Homo sapiens with 21 samples.

Results

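The 9 genes described here encode subunits of polycomb repressive complex 1 (PRC1): CBX2, CBX6, CBX7, CBX8, PHC1, PHC2, SCML2, BCORL1 and PCGF5. They were found by matching the Ensembl identifiers in the count tables to these symbols, which gave 9 of the 57500 genes in each table. All 9 had enough counts to be tested, as did 21958 genes in all.

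RNA was sequenced from tumours of HT1376, an established human bladder carcinoma line, implanted under the skin of female CB17 SCID mice aged 6 to 8 weeks. SCID mice lack mature T and B cells but keep vessels, fibroblasts and innate immune cells, and every group shared this host and this 1 cell line. The 21 libraries formed 7 groups of 3: a vehicle group and groups dosed with tazemetostat, valemetostat, CPI-1205, CPI-0209, PF-06821497 or MAK683. Each compound was given by mouth once a day at 75 mg/kg. Dosing began 11 to 15 days after implantation, when tumours averaged 139 to 160 mm3. Tumours were taken on day 15, 1 hour after dosing, for vehicle and compounds alike. All 6 compounds inhibit PRC2, the complex that methylates lysine 27 of histone H3. MAK683 is known to bind its EED subunit and the other 5 its catalytic subunit.

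PRC1 places ubiquitin on histone H2A through RING1 or RNF2, paired with a PCGF protein. In canonical PRC1 the pair is joined by a CBX protein, whose chromodomain binds the PRC2 mark, and by a PHC protein, whose SAM domain polymerises. Variant PRC1 carries RYBP or YAF2 in place of CBX and reaches chromatin by other routes, often at CpG-rich promoters. Which CBX protein is used differs between cell types, and in embryonic stem cells CBX7 is known to prevail and to give way to CBX2 and others on differentiation.

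The smallest library, CPI-0209 library 3, held 9725690 counts and the largest 25771778. Levels below are CPM, counts scaled to TMM-adjusted library size, and a gene was called when its edgeR quasi-likelihood test gave a Benjamini-Hochberg adjusted p under 0.05 over all genes tested. Nothing in the labels ties each library to its own animal, and p-values then reflect only how far these samples spread, which may be technical. The libraries are bulk tumour RNA, in which fewer cells of a type and less RNA per cell cannot be told apart.

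Of the 9 genes, 7 had a promoter entry in RefSeq (GRCh38.p14): CBX6, CBX7, PHC1, PHC2, SCML2, BCORL1 and PCGF5. In the 250 bases before the RefSeq start, the dinucleotide CG occurred 45 times for CBX6, 41 times each for CBX7 and PCGF5, 33 for SCML2, 25 for BCORL1 and 21 for PHC2. PHC1 had 10. The median of 14860 protein-coding promoters was 18, and 2.18% of them had as many as CBX7 or PCGF5, against 69.4% for PHC1. The last 100 bases before the start are shown for 4 genes, with each CG in capitals (CG reads the same on both strands). They set CBX7, a CpG-rich promoter whose gene fell, beside PHC1, a CpG-poor one whose gene also fell, and beside PCGF5 and BCORL1, which rose. CBX7 is read from the minus strand at chr22:39152681-39152780, and PHC1 from the plus strand at chr12:8913743-8913842. PCGF5 lies on the plus strand at chr10:91162912-91163011 and BCORL1 on the plus strand at chrX:129980879-129980978, all 5′ to 3′ along the gene.
CBX7: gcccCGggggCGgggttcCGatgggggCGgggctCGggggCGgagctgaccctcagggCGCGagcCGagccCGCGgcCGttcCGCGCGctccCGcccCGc
PHC1: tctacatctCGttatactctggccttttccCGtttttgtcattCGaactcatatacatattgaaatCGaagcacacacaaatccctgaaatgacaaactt
PCGF5: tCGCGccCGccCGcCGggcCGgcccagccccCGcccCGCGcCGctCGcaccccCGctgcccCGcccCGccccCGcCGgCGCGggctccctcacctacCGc
BCORL1: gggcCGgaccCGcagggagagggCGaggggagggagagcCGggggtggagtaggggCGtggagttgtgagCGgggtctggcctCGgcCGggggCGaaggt
CBX7, which fell, had as many CG in its 250 bases as PCGF5, which rose. Other starts of these genes were not read, and the part of promoter CG in these changes was not tested.

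CBX2, a canonical CBX subunit with a DNA-binding AT-hook, lies on chromosome 17 from 79778132 to 79787983. It stood at 6.02, 6.80 and 7.08 CPM in the vehicle libraries. CPI-0209 libraries held 21.2, 29.1 and 27.6 CPM, valemetostat libraries 17.4, 16.6 and 25.7, and MAK683 libraries 24.1, 22.4 and 23.7. All 9 of these libraries lay above every other library of the study. PF-06821497 libraries held 12.5, 8.21 and 10.2 CPM, above vehicle but below those 9. Tazemetostat (6.20 to 7.15 CPM) and CPI-1205 (5.15 to 9.57) overlapped vehicle. The log2 fold change against vehicle was 1.97 ± 0.21 (SE, adjusted p = 2.76e-07) with CPI-0209, a 3.91-fold rise. It was 1.58 ± 0.21 (adjusted p = 7.96e-06) with valemetostat and 1.82 ± 0.21 (adjusted p = 3.57e-06) with MAK683. The PF-06821497 value of 0.63 ± 0.21 was not called (adjusted p = 0.0622), though 9 of 35 other ways of fitting it did call it.

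CBX8, a chromodomain paralogue that neighbours CBX2 (79792132 to 79801683, opposite strand), rose in the same 3 groups. Vehicle libraries held 5.88, 7.26 and 7.78 CPM, against 11.8, 12.1 and 13.1 with CPI-0209, 11.4, 9.48 and 10.7 with valemetostat, and 12.1, 11.9 and 8.88 with MAK683. These groups did not overlap vehicle, while the other 3 did. CBX8 rose by 0.82 ± 0.17 (SE) on the log2 scale with CPI-0209 (adjusted p = 0.000433). The values were 0.59 ± 0.16 with valemetostat (adjusted p = 0.00964) and 0.65 ± 0.16 with MAK683 (adjusted p = 0.00821), and both calls were lost without vehicle library 1 (adjusted p 0.0645 and 0.0606).

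CBX6, on chromosome 22 (38861450 to 38872314, minus strand), encodes a further chromodomain subunit and was the most abundant of the 4 CBX members per length (9.73 ± 0.784 RPKM in vehicle, SD, n = 3). Vehicle libraries held 71.0, 83.0 and 80.5 CPM. The 9 libraries of CPI-0209, valemetostat and MAK683 all lay above these, between 99.9 and 117 CPM, with a mean of 106 ± 9.06 with CPI-0209, 107 ± 6.36 with valemetostat and 108 ± 1.25 with MAK683. The log2 fold changes of these 3 compounds were 0.45, 0.45 and 0.47, each with an SE of 0.11 (adjusted p 0.00301, 0.00476 and 0.00543). CPI-1205 libraries (59.9, 68.6 and 67.0 CPM) all lay below vehicle, but the change of -0.26 ± 0.11 was not called (adjusted p = 0.354).

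CBX7, the CBX subunit known for binding both the PRC2 mark and RNA, fell where its paralogues rose. It also lies on chromosome 22 (39120167 to 39152674, minus strand). Vehicle libraries held 33.8, 35.8 and 31.2 CPM. CPI-0209 libraries held 20.3, 22.3 and 20.3 CPM, valemetostat libraries 22.6, 21.3 and 21.7, and MAK683 libraries 22.2, 26.6 and 23.4. None of these overlapped vehicle. CBX7 fell by 0.68 on the log2 scale with CPI-0209 (SE 0.12, adjusted p = 0.000153), by 0.62 with valemetostat (SE 0.12, adjusted p = 0.000617) and by 0.48 with MAK683 (SE 0.12, adjusted p = 0.00881). The MAK683 call was lost without MAK683 library 1 or 3 and with a covariate for the mean level of 50 processed pseudogenes (adjusted p up to 0.0696 over all alternatives). With that covariate the CPI-0209 call was lost as well (-0.35, adjusted p = 0.0971). PF-06821497 libraries averaged 25.5 ± 4.53 CPM (SD, n = 3), with library 1 lowest at 20.4, a fall of 0.39 on the log2 scale (SE 0.12, adjusted p = 0.0425). That call was kept in only 12 of 35 alternatives. Exons of CBX7 overlap those of COX5BP7 on the same strand and AL031846.2 on the other, and whether counting used strand is not given, so some of these counts may belong to them.

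**Figure D1:**
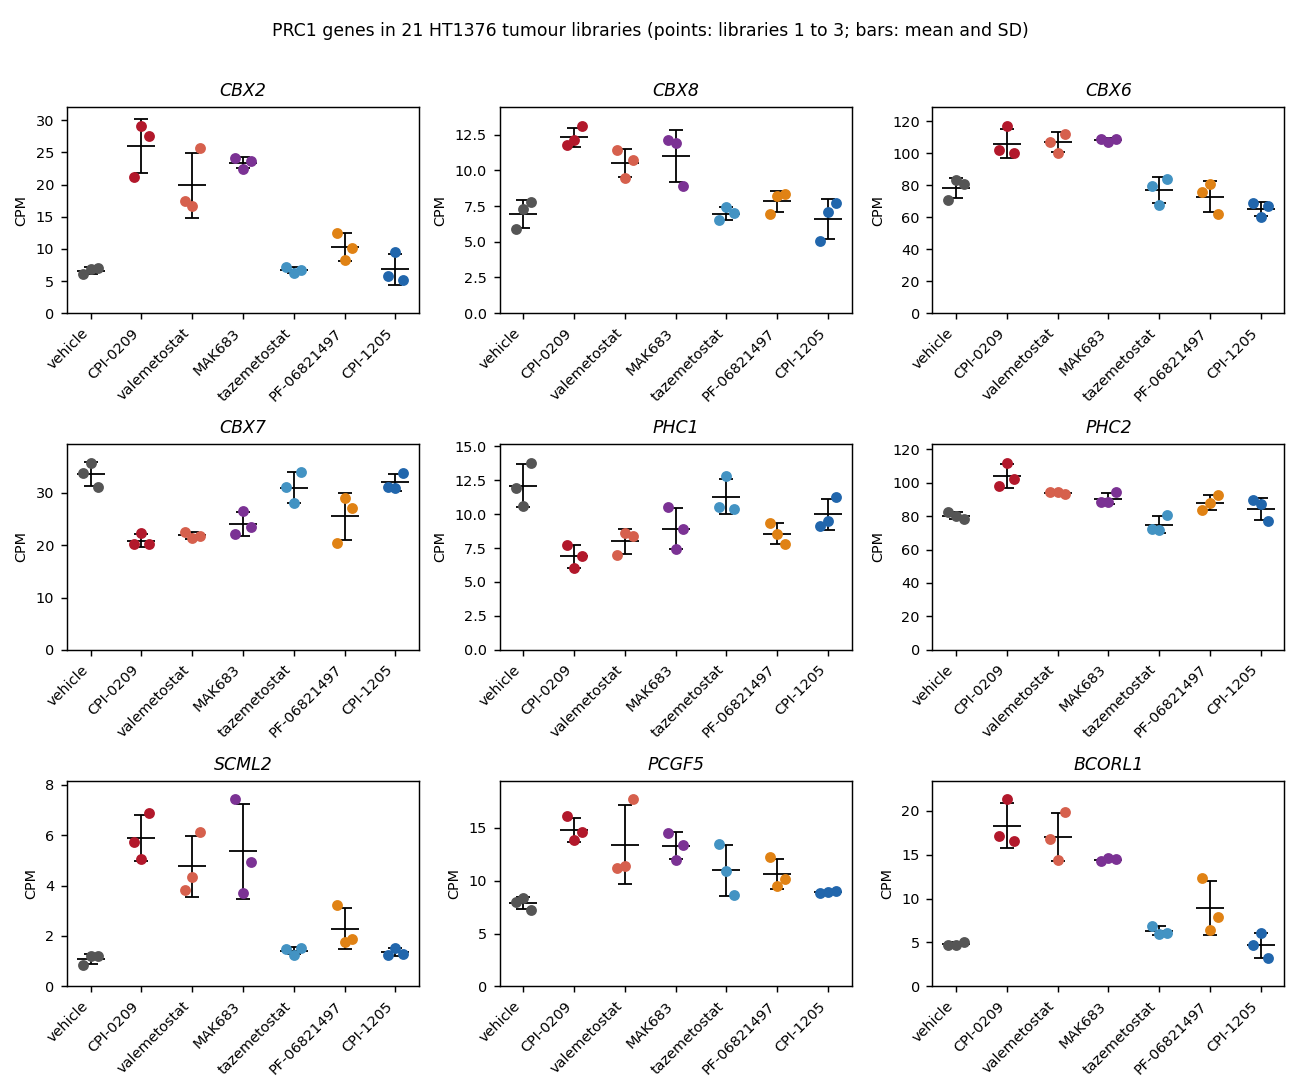
CPM (vertical axes, from 0) of the 9 PRC1 genes in each library, by treatment group; points are the 3 libraries of a group, and bars are the mean and SD. CBX7 in the CPI-0209, valemetostat and MAK683 groups sits between 20.3 and 26.6 CPM, below its lowest vehicle library, while CBX2, CBX6, CBX8, SCML2, BCORL1 and PCGF5 in those groups sit above vehicle.

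Set per transcript length (RPKM, CPM per kilobase of the length in the count tables), the summed level of the 4 CBX members was made up differently in those 3 groups. CBX7 took 26.4% ± 2.21 (SD, n = 3) of the summed RPKM of CBX2, CBX6, CBX7 and CBX8 in vehicle. With CPI-0209 it took 11.9% ± 0.385, with valemetostat 13.2% ± 0.964 and with MAK683 13.8% ± 1.26. CBX2 went the other way, from 6.83% ± 0.312 in vehicle to 19.3% ± 2.06, 15.6% ± 2.78 and 17.5% ± 0.804. The log2 ratio of CBX2 to CBX7 RPKM was -1.95 ± 0.18 in vehicle, -1.75 in the highest vehicle library, and 0.46, 0.77 and 0.84 with CPI-0209. Thus CBX2 stood below CBX7 in each vehicle library and above it in each CPI-0209 library. The same held in the valemetostat libraries (0.01, 0.04 and 0.63) and the MAK683 libraries (0.51, 0.14 and 0.41), by little in the valemetostat libraries 1 and 2. Tazemetostat (-1.95 to -1.73) and CPI-1205 (-2.33 to -1.30) stayed below 0, and PF-06821497 lay between (-0.31, -1.43 and -1.02). The order of CBX2 and CBX7 depended in part on the lengths used. In CPM, CBX2 stood below CBX7 in valemetostat libraries 1 (17.4 against 22.6) and 2 (16.6 against 21.3). The same was true of MAK683 library 2 (22.4 against 26.6), while the other libraries of both groups had CBX2 above CBX7. CBX6 held the largest of the 4 shares in every library, 57.0% ± 1.04 in vehicle and 56.2% ± 2.06 with CPI-0209. CBX8 took 9.79% ± 0.94 in vehicle and 12.6% ± 1.1 with CPI-0209. The sum itself went from 17.1 ± 1.13 RPKM in vehicle to 23.6 ± 1.81 with CPI-0209, 22.2 ± 1.76 with valemetostat and 23.5 ± 0.396 with MAK683. These shares are given as descriptions, with no test.

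**Figure D2:**
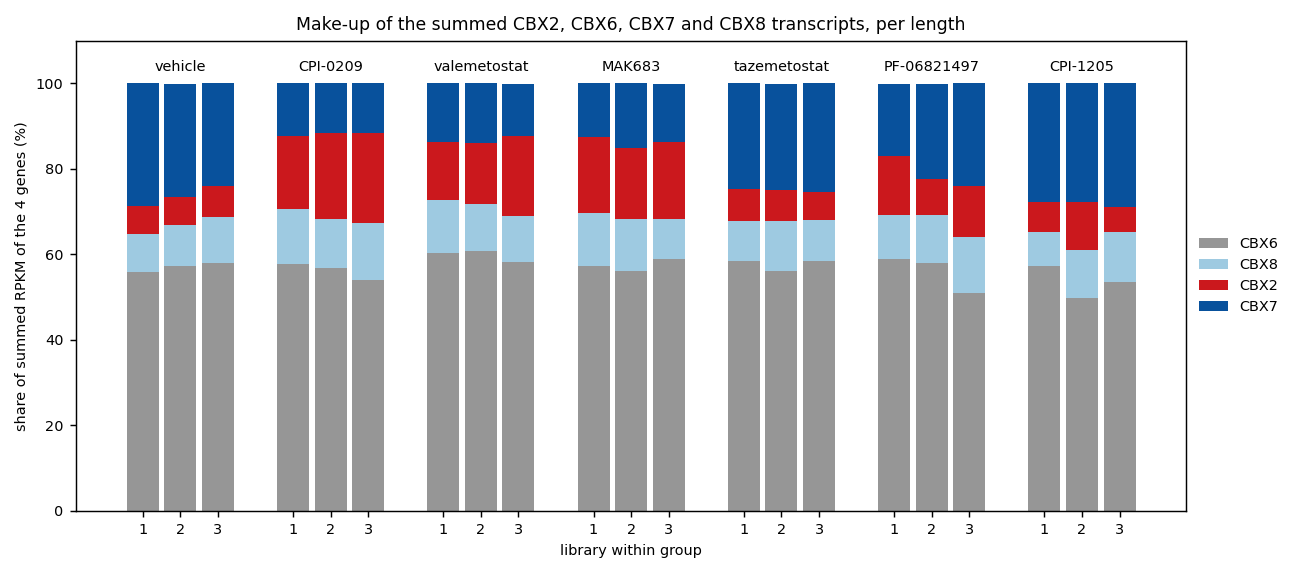
Share of the summed RPKM of CBX2, CBX6, CBX7 and CBX8 (vertical axis, percent) in each of the 21 libraries (horizontal axis, libraries 1 to 3 of each group). The CBX7 band is at 24.2% to 28.6% in vehicle and 11.7% to 12.4% with CPI-0209, and the CBX2 band at 6.62% to 7.19% in vehicle and 17.0% to 20.9% with CPI-0209.

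The PHC proteins join PRC1 particles through their SAM domains. PHC1 (chromosome 12, 8913896 to 8941467, plus strand) was the other gene that fell. It stood at 11.9, 10.6 and 13.8 CPM in vehicle and at 7.75, 6.03 and 6.88 with CPI-0209. Valemetostat libraries held 6.96, 8.64 and 8.38 CPM, MAK683 libraries 10.5, 7.43 and 8.88, and PF-06821497 libraries 9.35, 8.51 and 7.82. All of these lay below the lowest vehicle library, for MAK683 by a margin of less than its own spread. PHC1 fell by 0.81 on the log2 scale with CPI-0209 (SE 0.16, adjusted p = 0.00039). It fell by 0.60 with valemetostat (SE 0.16, adjusted p = 0.00696), a call lost without vehicle library 3 (adjusted p = 0.0612), and by 0.50 with PF-06821497 (SE 0.16, adjusted p = 0.0474). The MAK683 value of -0.44 ± 0.16 was not called (adjusted p = 0.0649). PHC1 exons overlap those of M6PR on the other strand. A processed copy, PHC1P1, held at most 1.63 CPM in any library.

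PHC2 (chromosome 1, 33323623 to 33431052, minus strand) was the most abundant PHC gene per length and had the smallest log2 fold change of the 9 with CPI-0209. Vehicle libraries held 82.6, 79.9 and 78.2 CPM and CPI-0209 libraries 97.8, 112 and 102, a rise of 0.37 ± 0.09 on the log2 scale (adjusted p = 0.00235). Valemetostat libraries (93.4 to 94.5 CPM) and MAK683 libraries (88.5 to 94.4 CPM) also lay above vehicle. Their values of 0.23 ± 0.09 and 0.17 ± 0.09 were not called (adjusted p 0.0643 and 0.227). Exons of PHC2 overlap AL513327.1 on the other strand. Per length, PHC1 made up 9.52% ± 1.12 (SD, n = 3) of the summed RPKM of PHC1, PHC2 and PHC3 in vehicle and 4.79% ± 0.747 with CPI-0209. PHC2 made up 76.1% ± 2.35 and 86.5% ± 3.11 of the same sums.

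SCML2, a SAM- and MBT-domain protein that associates with PRC1 and is known best from the male germline, had the largest log2 fold change of the 9 with CPI-0209. It lies on the X chromosome from 18239314 to 18354727, minus strand. Vehicle libraries held 0.86, 1.22 and 1.21 CPM, from 19, 29 and 26 counts. CPI-0209 libraries held 5.74, 5.06 and 6.88 CPM, from 103, 88 and 72 counts. Valemetostat libraries held 3.83, 4.34 and 6.12 CPM and MAK683 libraries 7.42, 3.72 and 4.94. All 18 treated libraries lay above the highest vehicle library, those of tazemetostat (1.25 to 1.51 CPM) and CPI-1205 (1.23 to 1.53 CPM) by little. The log2 fold change was 2.41 ± 0.29 (SE) with CPI-0209 (adjusted p = 1.02e-06), a 5.32-fold rise. It was 2.11 ± 0.28 with valemetostat (adjusted p = 9.44e-06) and 2.28 ± 0.28 with MAK683 (adjusted p = 8.33e-06). With PF-06821497 (3.22, 1.76 and 1.89 CPM) it was 1.05 ± 0.29 (adjusted p = 0.0254). The tazemetostat and CPI-1205 values of 0.36 ± 0.30 and 0.30 ± 0.30 were not called (adjusted p 1.0 and 0.700).

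BCORL1 and PCGF5 belong to variant PRC1: BCORL1, the paralogue of BCOR, is a corepressor of the PCGF1 complex, and PCGF5 is the PCGF protein of a complex known to act on the inactive X chromosome. BCORL1 (X chromosome, 129981107 to 130058083, plus strand) stood at 4.66, 4.66 and 5.08 CPM in vehicle. CPI-0209 libraries held 17.1, 21.3 and 16.5 CPM, valemetostat libraries 16.8, 14.4 and 19.9, and MAK683 libraries 14.3, 14.6 and 14.5. These 9 lay above all others, the nearest being PF-06821497 library 1 at 12.3 CPM. BCORL1 rose by 1.93 ± 0.22 (SE) on the log2 scale with CPI-0209 (adjusted p = 5.04e-07), 1.82 ± 0.22 with valemetostat (adjusted p = 2.06e-06) and 1.59 ± 0.22 with MAK683 (adjusted p = 2.22e-05). With PF-06821497 (12.3, 6.40 and 7.90 CPM) the value was 0.88 ± 0.22 (adjusted p = 0.0117). Its paralogue BCOR fell with CPI-0209: it stood at 40.0 ± 5.30 CPM (SD, n = 3) in vehicle and 29.1 ± 3.22 with CPI-0209, a log2 fold change of -0.46 ± 0.16 (adjusted p = 0.0275). It was not called with valemetostat (-0.33 ± 0.16, adjusted p = 0.144) or MAK683 (-0.19 ± 0.16, adjusted p = 0.499). BCOR and BCORL1 were not tested against each other.

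PCGF5 (chromosome 10, 91163012 to 91284331, plus strand) held 8.01, 8.35 and 7.22 CPM in vehicle, and all 18 treated libraries lay above those. CPI-0209 libraries held 16.1, 13.8 and 14.6 CPM and valemetostat libraries 11.2, 11.4 and 17.7. MAK683 libraries averaged 13.3 ± 1.28 CPM (SD, n = 3). Tazemetostat libraries were spread from 8.67 to 13.5 CPM, and CPI-1205 libraries lay together at 8.86 to 9.04. PCGF5 rose by 0.92 ± 0.18 (SE) on the log2 scale with CPI-0209 (adjusted p = 0.000296), 0.77 ± 0.18 with valemetostat (adjusted p = 0.00242) and 0.76 ± 0.18 with MAK683 (adjusted p = 0.00474). The tazemetostat value of 0.49 ± 0.18 had an unadjusted p of 0.0112 and an edgeR adjusted p of 1.0. Those of PF-06821497 (0.43 ± 0.18, adjusted p = 0.14) and CPI-1205 (0.19 ± 0.18, adjusted p = 0.68) were not called either. For none of the 9 genes was such a separation from vehicle set against the share of all genes.

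Counted together, 7 of the 9 genes rose and 2 fell with CPI-0209, where 22.3% of all tested genes rose and 18.8% fell. With valemetostat 6 rose and 2 fell, where 15.0% of all genes rose and 12.2% fell. With MAK683 6 rose and 1 fell (CBX7), where 10.4% rose and 5.17% fell. With PF-06821497 2 rose (SCML2 and BCORL1) and 2 fell (CBX7 and PHC1), where 5.96% of all genes rose and 3.59% fell. With tazemetostat and CPI-1205 none of the 9 was called by edgeR, and neither was any other gene: 0.0% rose and 0.0% fell in each. DESeq2 and limma-voom also called none of the 9 there. At an unadjusted p under 0.05, tazemetostat had 647 genes, PCGF5 among them, and CPI-1205 had 2713, CBX6 among them. The median log2 fold change of the 9 genes was 0.82 with CPI-0209, 0.59 with valemetostat, 0.65 with MAK683 and 0.17 with PF-06821497, where the medians of all tested genes lay between -0.02 and 0.01. These comparisons share the vehicle libraries. The 9 genes were chosen with earlier results of these data known. Their counts and medians therefore cannot show how often PRC1 genes changed compared with other genes.

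None of the PF-06821497 calls held without PF-06821497 library 1 (edgeR, adjusted p): SCML2 went to 0.74 (adjusted p = 0.128), BCORL1 to 0.59 (adjusted p = 0.0776), CBX7 to -0.24 (adjusted p = 0.226) and PHC1 to -0.55 (adjusted p = 0.0542). The SCML2 call was also lost without any 1 of the vehicle libraries. Over 35 alternatives BCORL1 was called in 34, SCML2 in 27, PHC1 in 14 and CBX7 in 12. That library was the highest of its group for CBX2, SCML2, BCORL1 and PCGF5 and the lowest for CBX7. Its title carries a resubmission mark, although the count column that carries the mark is that of library 2. CPI-1205 libraries 2 and 3 are marked in both.

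**Figure D3:**
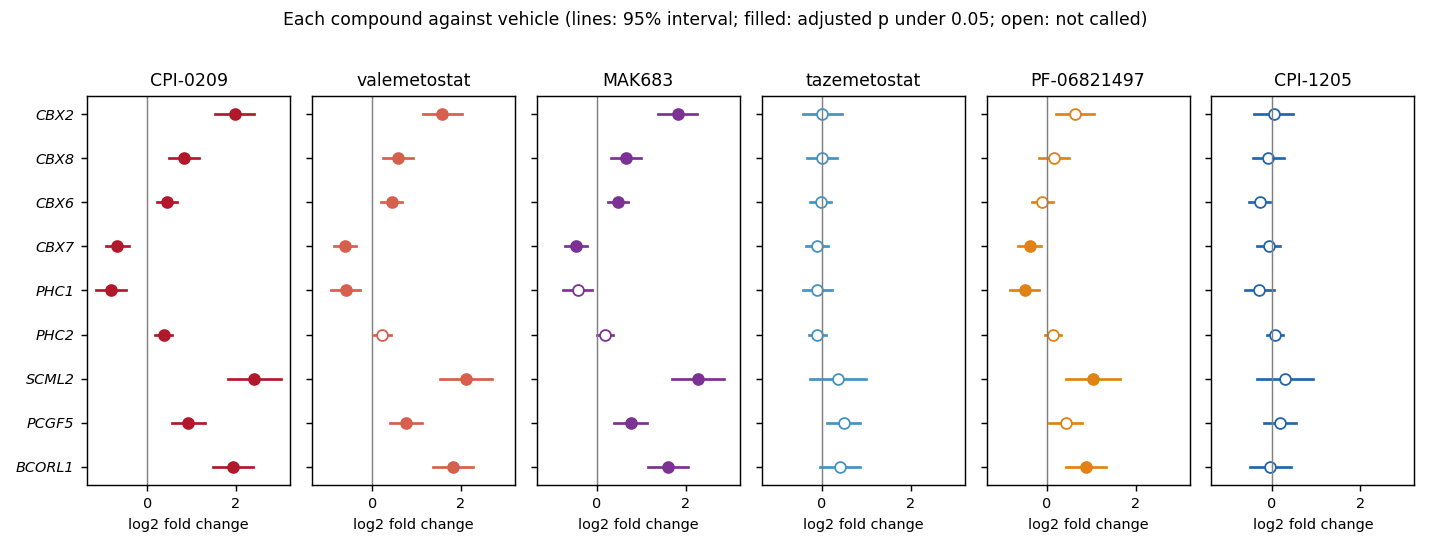
Log2 fold change against vehicle (horizontal axes) of the 9 genes in each compound group, with 95% intervals as lines; filled points had an adjusted p under 0.05. CBX2, SCML2 and BCORL1 lie between 1.58 and 2.41 with CPI-0209, valemetostat and MAK683, and CBX7 and PHC1 lie below 0 with those compounds and with PF-06821497.

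The compounds were compared at their shared dose and time. All 9 genes differed among the 6 compounds in the overall edgeR test, as did 32.3% of all genes, with adjusted p from 1.03e-07 (CBX2) to 0.0197 (PCGF5). Of 35 alternatives, PCGF5 lost that call in 4, which were a term for a resubmission mark in the count column, omission of the marked libraries, the pseudogene covariate and a covariate for the summed skeletal muscle markers without TNNT3 (adjusted p up to 0.418). PHC1 lost it without CPI-0209 library 2 or tazemetostat library 2 (adjusted p up to 0.0653), and PHC2 with no low-count filter or the pseudogene covariate (adjusted p up to 0.23). CPI-0209 was the reference of the single comparisons. CPI-1205 differed from it in 9 of 9 genes, where 35.2% of all genes did, and tazemetostat in 8 of 9, where 37.0% did. PHC1 and PHC2 no longer differed by the test between CPI-1205 and CPI-0209 without CPI-0209 library 2 or CPI-1205 library 3, in a fit of only these groups, and with either resubmission term, each of which left 7 of 9. With the marked libraries omitted PCGF5 was lost as well, which left 6 of 9, and with the pseudogene covariate CBX7, PHC2 and PCGF5 were lost, also leaving 6. PCGF5 was the exception for tazemetostat (log2 difference -0.43, 95% interval -0.79 to -0.06, adjusted p = 0.0593), and 12 of 35 alternatives called it, DESeq2 and limma-voom among them. PF-06821497 differed from CPI-0209 in 5 of 9 genes (CBX2, CBX6, CBX8, SCML2 and BCORL1), where 22.6% of all genes did. For CBX2 the log2 difference of PF-06821497 from CPI-0209 was -1.33 ± 0.21 (adjusted p = 9.75e-05). Without PF-06821497 library 1, CBX7 and PCGF5 also differed, making 7. PCGF5 (adjusted p = 0.0507) was called in 15 of 35 alternatives, DESeq2 and limma-voom among them.

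Valemetostat and MAK683 differed from CPI-0209 in none of the 9 by the edgeR test, where 0.0% and 9.08% of all genes differed. DESeq2 and limma-voom called none of the 9 either. At an unadjusted p under 0.05, 0 of the 9 differed for valemetostat, and 2 for MAK683: PHC1 (difference 0.37) and PHC2 (difference -0.20). A p above the threshold does not show equal levels, and the intervals give the differences that these libraries allow. For CBX2 the log2 difference from CPI-0209 was -0.38 (95% interval -0.80 to 0.03) with valemetostat and -0.15 (-0.57 to 0.26) with MAK683. For SCML2 it was -0.30 (-0.83 to 0.23) and -0.14 (-0.67 to 0.40), and for BCORL1 -0.11 (-0.53 to 0.32) and -0.34 (-0.77 to 0.09). For CBX7 it was 0.06 (-0.20 to 0.32) and 0.20 (-0.06 to 0.46).

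MAK683, the EED binder, was also set against the mean of the 5 compounds of the catalytic site. CBX2 was higher by 0.97 ± 0.15 (SE, adjusted p = 0.000742), SCML2 by 1.03 ± 0.19 (adjusted p = 0.00413) and CBX6 by 0.37 ± 0.08 (adjusted p = 0.0222), that is 3 of 9, where 1.87% of all genes differed. That mean pools groups as far apart as CPI-0209 and CPI-1205. The SCML2 call was lost without MAK683 library 1 (adjusted p = 0.205), and the CBX6 call was lost when any 1 of the MAK683 libraries was left out and with upper-quartile scaling (adjusted p up to 0.198). BCORL1 (0.59 ± 0.15, adjusted p = 0.0532) was called in 10 of 35 alternatives. They were DESeq2, limma-voom, no low-count filter, the resubmission term by title, omission of the marked libraries, the muscle covariate without TNNT3, and fits without CPI-0209 library 2, CPI-1205 library 2, PF-06821497 library 1 or valemetostat library 3.

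The other PRC1 genes were read as lists. Of 10 other core and canonical subunits, 1 fell (PCGF3) and none rose with CPI-0209, where 18.8% and 22.3% of all tested genes did, and their median log2 fold change was 0.06. PCGF3, the PCGF protein closest to PCGF5, was counted in this list although, like PCGF5, it belongs to a variant complex. It stood at 77.6, 81.0 and 94.3 CPM in vehicle and 75.4, 58.8 and 72.1 with CPI-0209. The log2 fold change was -0.29 ± 0.11 (adjusted p = 0.0346). The catalytic genes RING1 and RNF2 had values of 0.10 ± 0.15 and 0.08 ± 0.13, and BMI1, a PCGF protein of canonical PRC1, 0.07 ± 0.13, none of them called. With valemetostat and MAK683 edgeR called none of the 10, of which 0 and 1 had an unadjusted p under 0.05. Of all genes, 15.0% rose and 12.2% fell with valemetostat, and 10.4% rose and 5.17% fell with MAK683. Of 21 other variant subunits, 1 rose and 4 fell with CPI-0209, with a median of -0.08, and 1 rose and 3 fell with valemetostat. The 9 genes were chosen with earlier results of these data known, and these lists hold other PRC1 genes. Few calls in the lists therefore cannot show that those subunits changed less than other genes. The lists and the 9 genes were not tested against each other. AUTS2, an activator in the PCGF5 and PCGF3 complexes, rose by 0.72 ± 0.22 (adjusted p = 0.0113). RYBP fell by 0.58 (SE 0.16, adjusted p = 0.00496) and KDM2B, which brings the PCGF1 complex to CpG islands, by 0.39 (SE 0.11, adjusted p = 0.0051). CSNK2A2 and BCOR were the other two. With MAK683 AUTS2 was the 1 of these 21 that was called, at 0.81 ± 0.22 (adjusted p = 0.0127).

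Of 10 tested genes of the opposing H2A deubiquitinase, 5 fell with CPI-0209, where 18.8% of all genes did, and 3 with valemetostat, where 12.2% did. None rose with either. With MAK683 edgeR called none of the 10 in either direction (5.17% of all genes fell), and 3 had an unadjusted p under 0.05. Their median log2 fold change with CPI-0209 was -0.18, where that of all genes was -0.02. BAP1, its catalytic subunit, went from 108 ± 2.27 CPM (SD, n = 3) in vehicle to 77.1 ± 6.42 with CPI-0209 (log2 fold change -0.48, adjusted p = 0.000344), and OGT from 554 ± 113 to 269 ± 82.5 (-1.04, adjusted p = 0.000729). Of the 6 core PRC2 genes, EED (0.56 ± 0.13, adjusted p = 0.00153) and EZH2 (0.27 ± 0.10, adjusted p = 0.0362) rose with CPI-0209, while RBBP4 and EZH1 fell. Of all genes, 22.3% rose and 18.8% fell with CPI-0209. SUZ12 was not called (-0.14 ± 0.19). The heterochromatin genes that share the CBX name behaved apart from one another: CBX5 fell by 0.72 (SE 0.12, adjusted p = 6.82e-05), and CBX1 (0.03 ± 0.11) and CBX3 (-0.04 ± 0.10) were not called.

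The genes around the CBX loci were read in windows reaching 150 kb beyond them (GENCODE 29, GRCh38). Around CBX2 and CBX8 on chromosome 17, the protein-coding genes described are CBX2, CBX8, TBC1D16 and ENPP7. The first 3 were tested, and all 3 rose with CPI-0209, valemetostat and MAK683, where 22.3%, 15.0% and 10.4% of all genes did, while ENPP7 had too few counts to test. CBX2 and CBX8, for which the window was drawn, are 2 of the 3. TBC1D16, a Rab GTPase-activating protein gene (79932343 to 80035848, minus strand), had the largest log2 fold change of the 3 with CPI-0209. It went from 1.74 ± 0.305 CPM (SD, n = 3) in vehicle to 14.5 ± 1.06 with CPI-0209, a log2 fold change of 3.05 ± 0.28 (adjusted p = 3.59e-08). In the CBX6 and CBX7 window on chromosome 22, 14 genes were tested, of which 8 rose and 2 fell with CPI-0209, 7 rose and 2 fell with valemetostat, and 7 rose and 1 fell with MAK683. These counts include CBX6 and CBX7 themselves, and of all genes 18.8%, 12.2% and 5.17% fell with the same compounds. NPTXR, a neuronal pentraxin receptor gene next to CBX6, rose by 3.44 ± 0.35 with CPI-0209 (adjusted p = 1.22e-07). Between CBX6 and CBX7 stand the APOBEC3 cytidine deaminase genes. With CPI-0209 all of those tested rose, APOBEC3G by 1.75 ± 0.18 (adjusted p = 2.11e-07), except APOBEC3B (0.10 ± 0.14, adjusted p = 0.625). Most of the rises in this window with CPI-0209 were of APOBEC3 genes. The APOBEC3 genes are close copies and APOBEC3A and APOBEC3B overlap in the annotation, so reads may have been split among them. CBX7, beyond the APOBEC3 genes, fell, and SUN2, beyond CBX6, fell by 0.76 (SE 0.14, adjusted p = 0.000169).

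**Figure D4:**
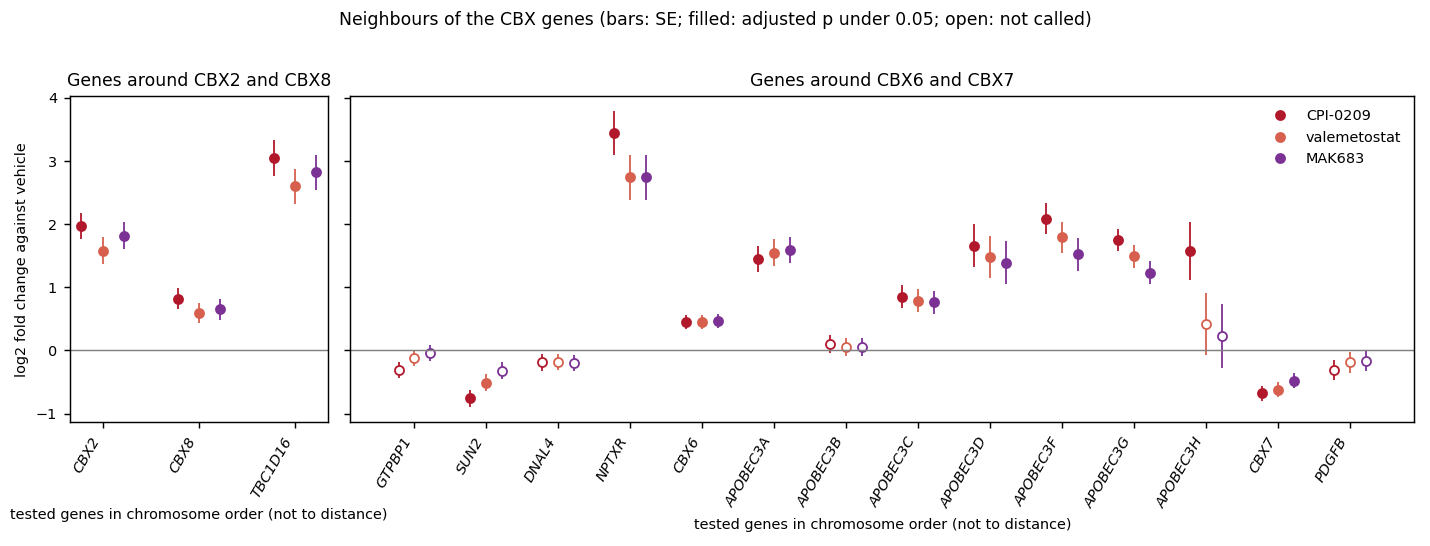
Log2 fold change against vehicle (vertical axis, with SE) of the tested protein-coding genes described around CBX2 and CBX8 and around CBX6 and CBX7, in chromosome order; filled points had an adjusted p under 0.05. TBC1D16 reaches 3.05 and NPTXR 3.44 with CPI-0209, while CBX7 lies at -0.68, -0.62 and -0.48 with CPI-0209, valemetostat and MAK683.

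Over the 21 libraries, the genes most like CBX2 in log2 CPM were CCDC88C (Pearson r = 0.986), HLA-DRB5 (0.981) and its chromosome 17 neighbour TBC1D16 (0.981). The log2 CPM used a prior count of 2, added before taking logs. With a prior count of 0.5, HLA-DRB5 (0.974) was no longer among the 3 genes most like CBX2. HIPK2 (0.983), TBC1D16 (0.975) and CCDC88C (0.972) were most like SCML2. BLACAT1 (0.979), SIRPA and TEX11 (both 0.978) were most like BCORL1, PISD (0.953) most like CBX7, and DOCK5 and TRIM52 (both 0.954) most like PHC1. Among the 9 themselves, CBX2 ran with SCML2 (r = 0.964) and BCORL1 (0.961) and against CBX7 (-0.867), and PHC1 ran against PHC2 (-0.874). These correlations are descriptions over libraries that share the 7 treatment groups and the scaling.

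Markers of other cell types were also called in these groups. With CPI-0209, where 22.3% of all genes rose, 6 of 10 tested endothelial markers rose and 2 fell, 8 of 12 leukocyte markers rose and 1 fell, and 7 of 12 fibroblast and matrix markers rose and 2 fell. With valemetostat (15.0% of all genes rose), 5 endothelial, 7 leukocyte and 4 fibroblast markers rose, and 2, 1 and 2 fell. With MAK683 (10.4% of all genes rose), 4, 4 and 3 rose, and 1, 0 and 2 fell. With PF-06821497 (5.96% of all genes rose), 1, 3 and 2 rose, and 1, 0 and 1 fell. Of all genes, 18.8% fell with CPI-0209, 12.2% with valemetostat, 5.17% with MAK683 and 3.59% with PF-06821497. The summed level of the 10 endothelial markers was 31.1 to 36.6 CPM in vehicle and 77.9 to 103 with CPI-0209, 75.2 to 80.6 with valemetostat and 70.0 to 92.1 with MAK683. The sum of the 12 leukocyte markers overlapped between vehicle (1190 to 1770 CPM) and CPI-0209 (1680 to 1840 CPM). It was highest with PF-06821497 (1940 to 2840 CPM), above every vehicle library. ADGRE1, NCAM1, LAPTM5 and CD3E, the leukocyte markers with the smallest p for CPI-0209, each held at most 75.8 CPM in any library. Other markers of the list therefore made up most of that sum. CD3E, a T cell marker, rose by 2.23 on the log2 scale with CPI-0209 (adjusted p = 3.55e-06), although SCID mice lack mature T cells. Whether the leukocyte sum or counts follow leukocyte content was not tested. The sum of the 12 fibroblast markers overlapped between vehicle and CPI-0209 (1280 to 2050 and 1740 to 4420 CPM). Both adipocyte markers that could be tested, of 6, rose with CPI-0209, and the sum went from 5.08 to 6.11 CPM in vehicle to 38.0 to 44.3. It was 36.2 to 44.2 with valemetostat, 26.3 to 28.5 with MAK683 and 30.1 to 51.3 with PF-06821497, with ADIPOQ at 0 in every library outside the CPI-0209 group. The tumour's own epithelial markers were abundant in every library, with 10 markers summing to 17600 to 18700 CPM in vehicle and 11300 to 13500 with CPI-0209, where 4 fell and 1 rose. The part of these markers in the PRC1 results was not tested.

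Skeletal muscle markers were high in CPI-0209 library 3. Without TNNT3, which these tumours express throughout, muscle markers summed to 1830 CPM there, 114 and 284 in the other CPI-0209 libraries and 9.36 to 127 in vehicle. The 50 processed pseudogenes of the covariate were picked because they followed the muscle markers within groups. That choice itself favours a high mean in CPI-0209 library 3. The mean log2 CPM of these 50 pseudogenes was 1.80, 1.83 and 3.58 in the CPI-0209 libraries and -0.596 to 0.286 in vehicle. It was 2.03, 0.187 and 0.954 in the MAK683 libraries, so that MAK683 library 1, which had the highest SCML2 level of all libraries, was second only to CPI-0209 library 3. It was 0.542 to 1.12 with valemetostat and -1.12 to 0.745 with PF-06821497. The rise of SCML2 with MAK683 was 1.98 on the log2 scale without that library (adjusted p = 6.32e-05) and 1.88 with the pseudogene mean as a covariate (adjusted p = 5.48e-05). Without CPI-0209 library 3, all 9 genes were called with values close to those above (CBX2 1.92, SCML2 2.29, BCORL1 1.99, CBX7 -0.66 and PHC1 -0.81). With the pseudogene mean as a covariate 8 of 9 were called with CPI-0209, and CBX7 was not (-0.35, adjusted p = 0.0971). CBX7 also lost its call with MAK683 (-0.33, adjusted p = 0.0643) and kept it with valemetostat (-0.50, adjusted p = 0.0016).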

How the data were processed

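RNA-seq raw counts per Ensembl gene were deposited by the authors, 1 table for each of 21 libraries, with a gene length column. STAR 2.7.3a, RSEM 1.3.1 and hg38 are named per the submitters' processing notes. How reads were counted, with or without strand and on which annotation, and whether mouse reads were removed is not given in the sources used here. Per the labels' protocols, tumour RNA was extracted with Trizol, and paired 150-base reads were made from TruSeq libraries, which the labels also call strand-specific.

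GENCODE 29 gave a symbol for 56898 of 57500 genes and matching coordinates for 54784. Libraries were grouped by the treatment in the labels, and genes were kept by filterByExpr (21958 genes, 99.6% to 99.9% of counts). R 4.3.3 and edgeR 4.0.16 were used, with TMM scaling (factors 0.946 to 1.08). All groups entered 1 model, and contrasts were tested two-sided by robust quasi-likelihood (14 residual degrees of freedom). The SE is the log2 fold change divided by the square root of F. RPKM was computed from CPM and the length column. DESeq2 1.42.0 and limma 3.58.1 served as alternatives, with other filters and scalings, fits of only the groups compared, resubmission terms, covariates and each library left out. The procedure was tested on simulated data. Library pairs of a group differed by more than sampling noise (chi-square per degree of freedom 5.17 to 50.7).

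The members, gene lists and tests were chosen with earlier results of these data known. Named genes were the 9 members in every comparison; RING1, RNF2, BMI1, EZH2, EED and SUZ12; of each other list up to 4 genes with the smallest p for CPI-0209; protein-coding genes within 150 kb of the CBX loci; and the 3 genes most alike each member. One further gene of this rule is not reported here and is left out of the lists and counts. BCOR, CBX1 and CBX3 beside these were named as paralogues, PHC3 as a member of the PHC sum. The 50 pseudogenes, of 1182 tested, were those that followed the muscle markers best within groups, a measure made after seeing the data. Libraries are numbered by their titles; the 3 PF-06821497 libraries have other numbers in their count columns.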

Additional observations from a re-analysis of the deposited data

How the results depend on the processing

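Every result was recomputed under 35 alternatives, 21 of which leave out 1 library. No called value of the 9 genes against vehicle changed sign. With CPI-0209 2 of 315 refits of called values lost the call (PHC2 with no low-count filter, adjusted p = 0.0796, and CBX7 with the pseudogene covariate), with valemetostat 2 of 280, with MAK683 4 of 245 and with PF-06821497 53 of 140. With each library left out in turn, the number of the 9 genes called ranged from 9 to 9 with CPI-0209, 7 to 9 with valemetostat, 6 to 7 with MAK683, 0 to 4 with PF-06821497 and 0 to 0 with tazemetostat and CPI-1205. Against CPI-0209 it ranged from 0 to 0 with valemetostat and MAK683, 8 to 9 with tazemetostat, 5 to 7 with PF-06821497 and 7 to 9 with CPI-1205. It ranged from 1 to 4 for MAK683 against the mean of the other 5 and from 8 to 9 in the overall test. For PF-06821497 against vehicle, 4 calls became 1 in a fit of only the groups compared, 2 with a term for a resubmission mark in the title and 1 with the marked libraries omitted. With the replicate number as a block they became 2, and no other count of calls changed with that block. The numbers gave no sign of pairing the libraries. Over 63 same-numbered pairs, deviations from group means correlated with r from -0.313 to 0.326, and 15 exceeded 0.1. Their median r was -0.0517, against 0.0193 over 126 different-numbered pairs. For PF-06821497 against CPI-0209, 5 calls became 2 with the pseudogene covariate, and for MAK683 against CPI-0209, 0 became 1 with the muscle covariate without TNNT3. These covariates were added after seeing the data. The causes were not tested. Upper-quartile scaling moved the median of all genes to 0.12 with CPI-0209 against vehicle, and no PRC1 gene called there changed direction under it. Depth limits SCML2 most, at 19 to 29 counts per vehicle library.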
